A study of Mus musculus with 4 samples.

Results

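The Notch genes described here are 10 named genes, 4 receptors (Notch1, Notch2, Notch3 and Notch4), 3 ligands (Jag1, Jag2 and Dll1) and 3 transcriptional targets (Hes1, Hey1 and Heyl), of the 52636 genes listed in the count matrices. The rule is a list of names with no threshold on a measured value, and all 10 were found. Notch is a receptor that is cut when it binds a ligand on a neighbouring cell. The freed intracellular part enters the nucleus, joins the DNA-binding protein RBPJ and switches on target genes, of which those of the HES and HEY families of repressors are the best known. In the mammary gland the pathway is known for its part in the choice between basal and luminal fate, with the ligands found mainly in the basal layer and the active receptors in luminal cells.

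EpCAM+ cells were sorted from mammary glands of mice 6 months old, all of which carried pellets of estradiol and progesterone (E2 and P4), and RNA was counted in single cells from the 3′ end. The 4 libraries cross wild-type Esr1 with the Esr1 Y541S mutation, and vehicle (MCT) with giredestrant, a drug taken by mouth that blocks the estrogen receptor and marks it for degradation, given at 30 mg/kg daily for 4 days. Each group was 1 library, the labels do not give the number of animals in a library, and no between-animal error could be had, so every comparison of treatments or genotypes below sets 1 library against another, with counting error only and no test. The source label speaks of mature luminal cells, but the sort was on EpCAM alone, and in 3 of the 4 libraries basal cells outnumbered each luminal class.

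Cells were placed in 3 classes by the summed UMIs (unique molecules counted) of marker genes per 10000 UMIs. The hormone-sensing class, the luminal cells that carry the estrogen receptor, needed 10 of Esr1, Prlr, Areg and Foxa1, and was split at 3 UMIs of Krt14 per 10000. The secretory class, the luminal cells that can make milk, needed 10 of Wfdc18, Csn3, Elf5 and Kit, and the basal class, the contractile outer layer, needed 20 of Acta2, Myh11, Mylk and Tagln. Of 30062 barcodes, 25950 passed the filters, between 3029 and 8622 per library, with median UMIs from 6267.5 (Y541S giredestrant) to 21927 (wild-type giredestrant). Hormone-sensing Krt14-low cells numbered 627 in wild-type vehicle, 1034 in wild-type giredestrant, 2074 in Y541S vehicle and 1499 in Y541S giredestrant. Secretory cells numbered 680, 607, 1553 and 1330, and basal cells 4832, 998, 2951 and 3641, in the same order. Levels are given as CPM, the UMIs of a gene per 1000000 UMIs of the summed cells. Of the markers outside the rules, the summed basal list (Krt5, Krt17, Trp63, Oxtr and Cnn1) lay between 3617.5 and 4434.5 CPM in basal cells and at 134.9 or less in secretory and Krt14-low cells. The summed hormone-sensing list lay between 585.2 and 1706.5 CPM in Krt14-low cells, lowest in Y541S giredestrant, and at 70.0 or less in secretory and basal cells.

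The Y541S giredestrant library stood apart from the other 3. It held 980 hormone-sensing Krt14-high cells, against 15 in wild-type vehicle, 9 in wild-type giredestrant and 22 in Y541S vehicle, and 874 of its 1330 secretory cells were rich in casein UMIs, against at most 11 elsewhere. Its Krt14-low cells also carried more of the basal genes Krt14 (49.3 CPM, against at most 9.6), Krt17 (70.1, against at most 12.4) and Trp63 (43.3, against at most 2.5). In its Krt14-high cells the summed hormone-sensing list was at 259.5 CPM, below the basal list at 669.3 and the secretory list (Aldh1a3, Cd14, Ltf, Trf and Lalba) at 315.1, so these cells are called hormone-sensing by the rule alone. Their luminal list (Krt8, Krt18 and Epcam) was at 2857.8 CPM, against 5986.2 in the Krt14-low cells and 1035.0 in the basal cells of that library. It was the shallowest library, and the submitters' own sample number for it does not follow on from those of the other 3, which are consecutive. Libraries shared between 10 and 29 cell barcodes per pair.

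The upstream sequence is shown for 4 members: Notch3 and Dll1, whose levels separated luminal from basal cells in opposite directions, and Notch2 and Jag1, because letters of a HES binding site occur there. Promoter sequences were taken from RefSeq (GRCm38.p6), which held an entry for 7 of the 10 members (8 windows, 2 of them for Dll1). The targets Hes1, Hey1 and Heyl had no entry. The windows run up to 250 bases before the start and are printed only where they lie outside the annotated gene, 5′ to 3′ on the gene's strand. Capitals mark CACGCG on either strand, the class C site of HES repressors.
Notch3 (chr17:32166891-32167140, minus strand): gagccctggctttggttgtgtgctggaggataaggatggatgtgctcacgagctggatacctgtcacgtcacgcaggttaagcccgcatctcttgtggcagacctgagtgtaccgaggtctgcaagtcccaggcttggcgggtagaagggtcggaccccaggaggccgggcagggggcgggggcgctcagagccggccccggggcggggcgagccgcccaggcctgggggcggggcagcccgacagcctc
Dll1 (chr17:15376933-15377182, minus strand): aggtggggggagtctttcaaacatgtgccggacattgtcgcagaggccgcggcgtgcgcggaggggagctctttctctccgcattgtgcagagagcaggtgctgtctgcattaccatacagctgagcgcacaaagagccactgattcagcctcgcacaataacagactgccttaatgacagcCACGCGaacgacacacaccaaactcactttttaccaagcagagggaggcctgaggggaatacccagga
Notch2 (chr3:98013288-98013526, plus strand): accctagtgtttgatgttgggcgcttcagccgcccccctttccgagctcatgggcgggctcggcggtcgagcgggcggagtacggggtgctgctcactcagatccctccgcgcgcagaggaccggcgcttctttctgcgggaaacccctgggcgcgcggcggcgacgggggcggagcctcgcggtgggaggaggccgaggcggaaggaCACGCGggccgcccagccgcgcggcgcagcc
Jag1 (chr2:137116645-137116770, minus strand): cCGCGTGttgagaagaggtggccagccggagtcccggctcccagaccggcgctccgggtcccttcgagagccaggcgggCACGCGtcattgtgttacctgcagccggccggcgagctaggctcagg

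In all, 6 motifs were searched on both strands of the 8 windows. The first 3, the RBPJ core TGGGAA, its longer form GTGGGAA (which contains the core) and the palindromic estrogen response element, had no match in any of the 8, against 21.6%, 5.42% and 0.0639% of all 32851 promoter windows of the same length. The other 3 were added after that search had found nothing, so their matches are a description of letters alone. CACGCG was found in 3 members, with 2 matches in Jag1 and 1 each in Notch2 and Dll1, against 7.62% of all windows. The E-box CACGTG of HES and HEY proteins had no match, against 6.02%, and the GC box GGGCGG was found in Notch1, Notch2, Notch3 and Jag2, against 32.7%. None of the windows belongs to the targets Hes1, Hey1 or Heyl, so their promoters were not searched. These windows hold only the bases next to the start, and nothing is read from them about binding.

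Of the 4 receptors, Notch1 and Notch3 were higher in both luminal classes than in basal cells, and Notch2 and Notch4 passed neither contrast. Notch3 stood at 78.6 CPM in wild-type vehicle, 79.5 in wild-type giredestrant, 82.0 in Y541S vehicle and 119.9 in Y541S giredestrant in hormone-sensing Krt14-low cells. In secretory cells it stood at 97.1, 73.5, 66.8 and 110.8, in the same order, and in basal cells at 3.74, 4.28, 3.47 and 8.28. Every luminal value therefore lay above every basal value, and the luminal classes overlapped. Summed counts were compared between classes with the 4 libraries as replicates and the library as a block (edgeR's quasi-likelihood test, Benjamini-Hochberg adjustment over 18376 genes), and the log2 fold change of Notch3 was 4.16 ± 0.19 (SE) for Krt14-low against basal cells (adjusted p = 3.138e-07). It was 3.96 ± 0.19 for secretory against basal cells (edgeR adjusted p = 6.131e-07), and 0.19 ± 0.17 for Krt14-low against secretory cells (edgeR adjusted p = 0.39), which did not pass.

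Notch1, the receptor that drives much of luminal Notch signalling, was graded over the 3 classes. Secretory cells held 93.6, 71.5, 72.0 and 103.6 CPM (libraries in the order above), Krt14-low cells 38.4, 31.8, 34.1 and 84.9, and basal cells 21.0, 25.0, 19.5 and 46.1. Within each library the order was secretory, then Krt14-low, then basal. Across libraries the Krt14-low range overlapped those of both other classes. The secretory level exceeded the basal level by 1.46 ± 0.17 on the log2 scale (edgeR adjusted p = 5.664e-05) and the Krt14-low level was 0.82 ± 0.16 below it (edgeR log2 fold change -0.82, adjusted p = 0.0023). Krt14-low cells exceeded basal cells by 0.64 ± 0.16 (edgeR adjusted p = 0.0064), a call that was lost without the Y541S vehicle library (adjusted p = 0.055). Without the library as a block, neither Krt14-low contrast of Notch1 passed (edgeR adjusted p = 0.11 against secretory and 0.14 against basal cells).

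Notch2 varied less between classes than Notch1 or Notch3 in these sums, from 26.4 to 49.4 CPM in Krt14-low cells, 57.8 to 70.4 in secretory cells and 38.4 to 45.3 in basal cells. None of its 3 class contrasts passed (edgeR adjusted p from 0.073 to 0.64), although Krt14-low against secretory cells did so without the wild-type vehicle library (0.023) or the Y541S giredestrant library (0.049). Notch4, a receptor known from endothelium, reached at most 1.22 CPM in any epithelial class and passed no contrast (edgeR adjusted p from 0.51 to 0.77). In the 17 cells of the wild-type vehicle library above a threshold for endothelial markers it stood at 77.7 CPM and in the 12 of wild-type giredestrant at 49.9, while it had no UMI in the 5 and 8 such cells of the Y541S libraries. These endothelial sums held only 64346, 120231, 74663 and 23333 UMIs of all genes (libraries in the order above). They are too small for a comparison of genotypes. Transcript levels are compared between classes only, because capture from the 3′ end differs between genes.

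The ligands were the basal side. Jag1, the main Jagged ligand of the basal layer, stood at 194.6, 120.0, 175.4 and 203.2 CPM in basal cells, at 18.3, 47.5, 25.9 and 56.0 in Krt14-low cells, and at 5.64, 3.15, 4.13 and 8.11 in secretory cells. The 3 ranges did not overlap. Secretory cells were below basal cells by a log2 fold change of -5.33 ± 0.32 (edgeR adjusted p = 1.573e-06), and Krt14-low cells by -2.39 ± 0.28 (edgeR adjusted p = 4.441e-05). Krt14-low cells were above secretory cells by 2.94 ± 0.30 (edgeR adjusted p = 3.729e-05).

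Jag2 and Dll1 were close to the lower end of detection in luminal cells of 3 libraries. Jag2 stood at 35.6, 46.8, 39.9 and 46.4 CPM in basal cells, and in Krt14-low cells at 0.59, 0.90, 0.83 and 8.69. Dll1, a ligand of the Delta family, stood at 39.8, 45.9, 49.3 and 73.9 CPM in basal cells and at 0.32, 0.08, 0.40 and 2.11 in Krt14-low cells. Secretory cells held 0.39 to 1.77 CPM of Jag2 and 0.78 to 3.21 of Dll1. For both ligands the highest value in these luminal classes was in the Y541S giredestrant library and still lay below the lowest basal value. Krt14-low against basal cells gave -4.90 ± 0.50 for Jag2 (edgeR adjusted p = 1.635e-05) and -6.79 ± 0.45 for Dll1 (edgeR adjusted p = 1.352e-06). Dll1 was also lower in Krt14-low than in secretory cells, at -1.23 ± 0.46 (edgeR adjusted p = 0.048), a call lost without either wild-type library (adjusted p = 0.082 without vehicle and 0.10 without giredestrant) or without Y541S vehicle (0.15).

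The 3 targets had 3 patterns. Hey1 and Heyl were secretory genes. Hey1 stood at 13.5, 60.0, 24.4 and 9.38 CPM in secretory cells, 7.28, 6.57, 4.67 and 4.92 in basal cells, and 0.81 or less in Krt14-low cells. Heyl stood at 5.44, 5.23, 4.67 and 16.1 CPM in secretory cells and at 0.62 or less in the 2 other classes. Against Krt14-low cells the secretory excess gave log2 fold changes of -6.01 ± 0.48 for Hey1 (edgeR adjusted p = 1.053e-05) and -4.66 ± 0.40 for Heyl (edgeR adjusted p = 1.498e-05). Secretory against basal cells gave 1.60 ± 0.38 for Hey1 (edgeR adjusted p = 0.0057, and 0.057 without the Y541S vehicle library) and 3.89 ± 0.38 for Heyl (edgeR adjusted p = 2.006e-05).

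Hes1 was present in every class, at 62.7, 176.1, 70.1 and 132.4 CPM in Krt14-low cells, 125.2, 110.5, 85.9 and 107.2 in secretory cells and 85.2, 56.7, 36.3 and 40.3 in basal cells. The ranges of Krt14-low and basal cells overlapped, and in wild-type vehicle the Krt14-low level lay below the basal level (62.7 against 85.2 CPM). Krt14-low cells exceeded basal cells by 0.90 ± 0.27 on the log2 scale (edgeR adjusted p = 0.015) and secretory cells did so by 0.79 ± 0.27 (edgeR adjusted p = 0.033). Without any one of the wild-type giredestrant, Y541S vehicle or Y541S giredestrant libraries, neither call was kept (adjusted p from 0.072 to 0.17), so both rest on all of these libraries together.

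**Figure D1:**
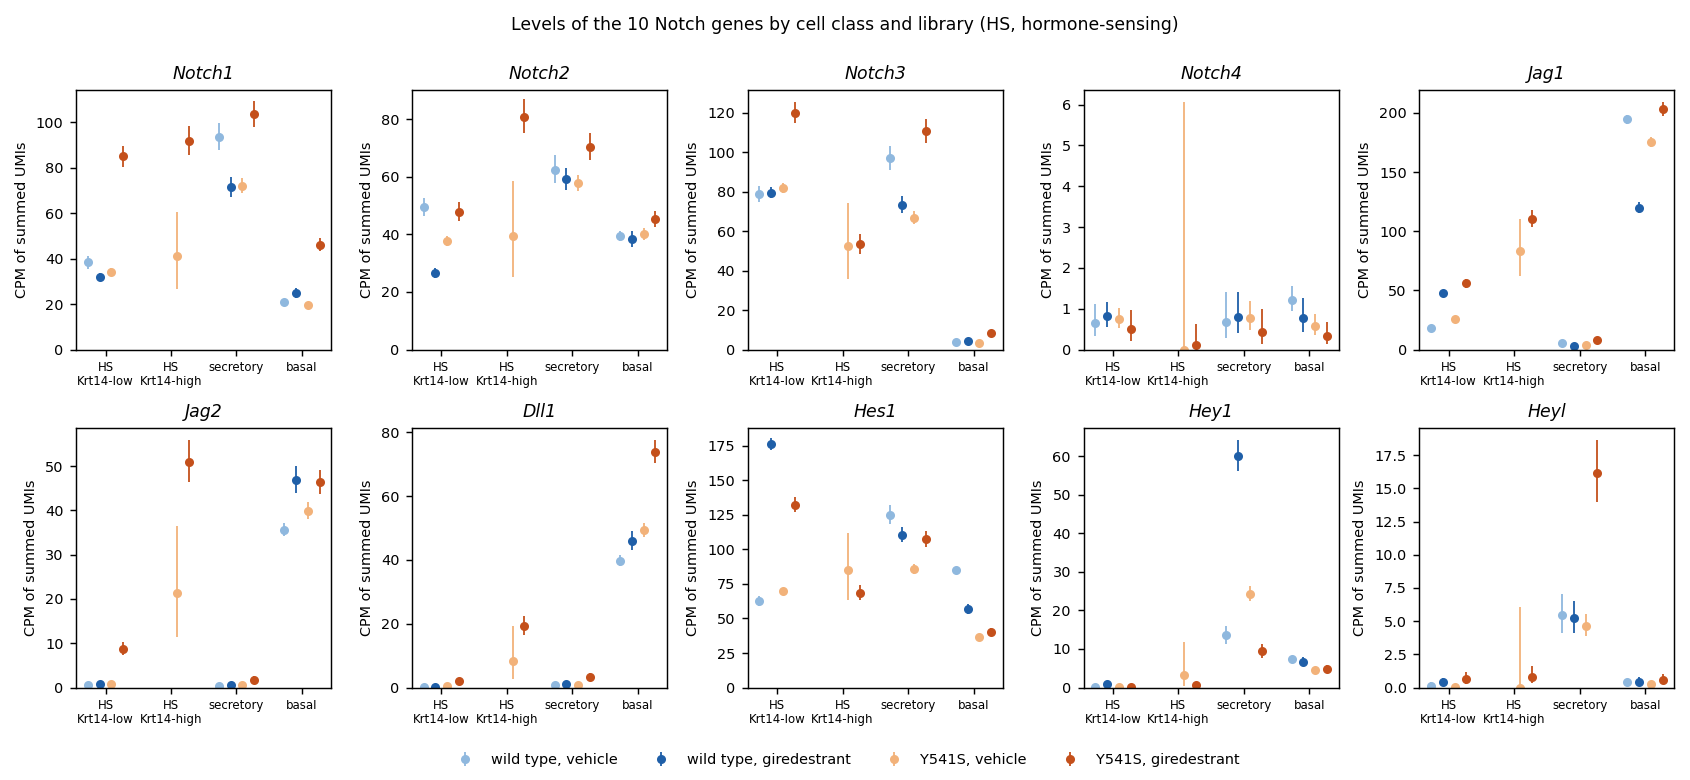
CPM of each of the 10 Notch genes (vertical axis, 1 panel per gene) in the 4 cell classes, with 1 point per library of at least 20 cells and a bar for the exact 95% Poisson interval. Notch3 is high in luminal classes, Jag1, Jag2 and Dll1 are high in basal cells, and Hey1 and Heyl in secretory cells. Notch1 is highest in secretory cells within each library, and its Krt14-low and basal ranges overlap.

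By count, 1 member was higher and 4 were lower in Krt14-low than in secretory cells, where 23.9% of all genes tested were called higher and 21.4% lower. Against basal cells, 3 members were higher and 4 lower in Krt14-low cells (all genes 30.4% and 29.2%), and 5 were higher and 3 lower in secretory cells (all genes 22.7% and 24.0%). The median log2 fold changes of the 10 members were -0.20, -0.45 and 0.59 for these 3 contrasts, and those of all genes 0.02, 0.03 and -0.003. The direction was divided by role: the receptors and targets that were called against basal cells were higher in luminal cells, except Hey1 in Krt14-low cells, and all 3 ligands were lower.

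**Figure D2:**
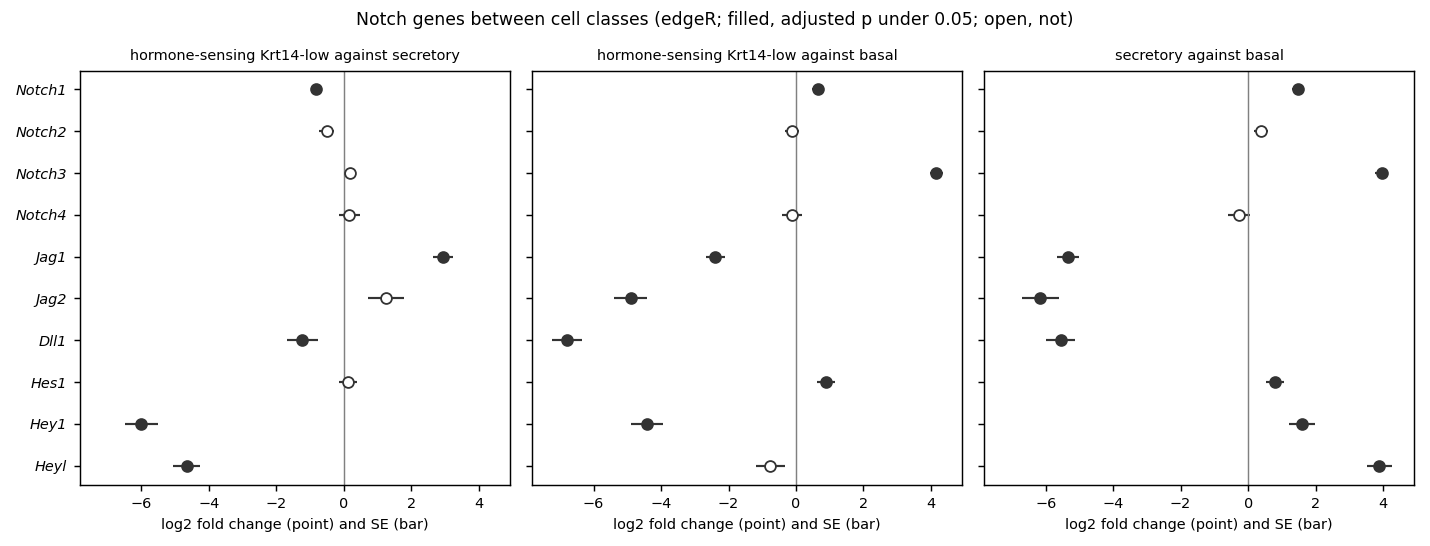
Log2 fold change of each Notch gene between cell classes (edgeR, 4 libraries, library as a block), 1 panel per contrast, with the SE as a bar and filled points for adjusted p under 0.05. All 3 ligands lie left of zero in both contrasts with basal cells, and Notch1, Notch3 and Hes1 lie right of it.

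The rest of the pathway was read from a list of 54 genes (other ligands, the proteases and γ-secretase subunits that cut the receptor, glycosyltransferases, trafficking and ubiquitin ligase genes, the RBPJ complex, co-repressors and other targets), of which 49 could be tested. Of these, 17 were higher and 9 lower in Krt14-low than in secretory cells (all genes 23.9% and 21.4%). In Krt14-low against basal cells, 16 were higher and 16 lower (all genes 30.4% and 29.2%), and in secretory against basal cells 14 and 14 (all genes 22.7% and 24.0%). Maml2, a coactivator of the Mastermind family in the RBPJ complex, stood at 14.2, 48.1, 15.7 and 77.3 CPM in Krt14-low cells and between 431.2 and 661.5 in secretory cells (log2 fold change -3.82 ± 0.39, edgeR adjusted p = 3.806e-05). Lfng, the Fringe glycosyltransferase that changes which ligands a receptor answers to, was above its secretory level in Krt14-low cells in every library, at 1.76 to 6.38 CPM against 0.54 to 0.93 (2.84 ± 0.33, edgeR adjusted p = 8.016e-05). It was also lower in secretory than in basal cells (-2.77 ± 0.33, edgeR adjusted p = 7.057e-05). Krt14-low against basal cells did not pass (0.07 ± 0.27, edgeR adjusted p = 0.845). Dlk2, a non-canonical ligand, was a basal gene, at 7.83 to 14.9 CPM there and 0.62 or less in Krt14-low cells (-6.81 ± 0.72, edgeR adjusted p = 2.183e-05).

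In wild-type mice, giredestrant was accompanied by higher Hes1 and Jag1 and lower Notch2 in Krt14-low cells. Hes1 stood at 176.1 CPM against 62.7 with vehicle, a 2.81-fold level, and Jag1 at 47.5 against 18.3, 2.59-fold. The median gene of that class was itself 0.44 higher on the log2 scale, so ratios are given relative to the median gene of each class and comparison from here on, with exact 95% conditional binomial intervals. On that scale Hes1 was at 1.05 (0.96 to 1.14) and Jag1 at 0.93 (0.76 to 1.10). Notch2 was at -1.34 (-1.47 to -1.21), from 49.4 to 26.4 CPM. Notch1 was at -0.71 (-0.85 to -0.57), which comes to -0.27 with no shift to the median gene, within 1.5-fold. Hey1 was past 1.5-fold on 33 UMIs over both libraries, with an interval that includes no difference.

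Of the 8 members with at least 20 UMIs in that class, 3 were at least 1.5-fold higher and 2 lower, where 22.2% of all genes were higher and 22.1% lower. The share of Krt14-low cells with a Hes1 UMI, after each cell was thinned to 3000 UMIs, was 15.9% (95% Clopper-Pearson interval 13.1 to 19.0) with vehicle and 33.5% (30.6 to 36.5) with giredestrant. For Jag1 the shares were 4.05% (2.63 to 5.91) and 11.5% (9.65 to 13.7). In secretory cells, the luminal class with little Jag1, the Jag1 shares were 0.469% and 1.0%. The thinned and unthinned orders were the same for both genes in Krt14-low cells. Thinning evens out depth only, so the thinned shares here and below are not relative to the median gene.

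Secretory cells of wild-type mice differed most in Hey1. It stood at 13.5 CPM (139 UMIs) with vehicle and 60.0 CPM (895 UMIs) with giredestrant. The relative log2 ratio was 2.10 (1.84 to 2.36), and the share of thinned cells with a UMI was 3.13% (1.92 to 4.79) against 13.2% (10.6 to 16.1). Heyl did not differ beyond counting error, at -0.11 (-0.63 to 0.41). Jag1 was past 1.5-fold lower at -0.89 (-1.48 to -0.31) on 47 UMIs against 58, and the sign turned with cells thinned to 3000 UMIs (1.95). The thinned value rests on fewer UMIs still. With 1 member higher and 1 lower of 8, the background was 9.48% and 10.7% of genes.

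Basal cells of wild-type mice held less Jag1 and Hes1 with giredestrant. Jag1 stood at 120.0 CPM against 194.6, a relative log2 ratio of -0.85 (-0.92 to -0.79), and Hes1 at 56.7 against 85.2, -0.74 (-0.84 to -0.65). In the same basal cells the secretory list was at 175.5 CPM against 365.9, the fibroblast list at 292.7 against 144.1 and the immune list at 127.7 against 75.5. Without cells that hold markers of non-epithelial cells, Jag1 was at -0.85 and Hes1 at -0.75, and the part of secretory RNA was not tested. That setting kept 4820 of 4832 basal cells with vehicle and 995 of 998 with giredestrant, so the ratios could hardly move. Non-epithelial RNA in the kept cells was not tested. Both Jag1 and Hes1 lay on opposite sides of the median gene in basal and in Krt14-low cells of the same 2 libraries. Jag2 and Dll1 were within 1.5-fold, at 0.24 (0.13 to 0.35) and 0.05 (-0.06 to 0.17). Notch4 was also past the fold, on 15 UMIs against 71. With these 3, none of 10 members was higher (14.8% of genes) and 3 were lower (14.3%).

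In Y541S mice, giredestrant was accompanied by higher Notch1, Jag1, Jag2 and Dll1 in Krt14-low cells. Notch1 stood at 84.9 CPM against 34.1 with vehicle, a relative log2 ratio of 0.97 (0.87 to 1.07), and Jag1 at 56.0 against 25.9, 0.77 (0.65 to 0.89). Jag2 stood at 8.69 CPM (140 UMIs) against 0.83 (45 UMIs), 3.05 (2.56 to 3.57), and Dll1 at 2.11 (34 UMIs) against 0.40 (22 UMIs), 2.04 (1.23 to 2.89). Hes1, at 132.4 CPM against 70.1, came to 0.57 (0.50 to 0.65), just within 1.5-fold, and to 0.92 with no shift to the median gene. Notch4 was past 1.5-fold lower on 8 UMIs against 41, with an interval that includes no difference.

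Basal genes moved in the same cells. Krt14-low cells of the Y541S giredestrant library had a summed basal list of 120.8 CPM against 14.9 in Y541S vehicle. In a setting chosen after this was seen, only cells with no UMI of Krt14, Krt17 or Trp63 were used (650 of 1499 and 1627 of 2074). Notch1 was then at 0.82, Jag1 at 0.62, Jag2 at 2.01 and Dll1 at 2.38, each still past 1.5-fold. The cells used had a median of 6842.5 UMIs with giredestrant and 24633 with vehicle. A lack of UMIs was thus the weaker filter in the giredestrant library, and cells with undetected basal transcripts can remain there. Of the 8 members with at least 20 UMIs, 4 were higher and 1 lower (23.1% and 24.2% of all genes).

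The thinned shares of Krt14-low cells with a UMI were 9.32% (8.09 to 10.7) with vehicle and 22.7% (20.5 to 25.0) with giredestrant for Notch1. They were 0.296% (0.109 to 0.643) and 2.88% (2.06 to 3.92) for Jag2. In the secretory class, which should hold little Jag2, the shares were 0.197% and 0.723%. The Jag2 share of Krt14-low cells thus lay above the secretory share in the giredestrant library and not clearly in the vehicle library. For Dll1 the Krt14-low level in the giredestrant library lay below the secretory level, at 2.11 CPM (34 UMIs) against 3.21 (38 UMIs). The relative log2 ratio of Dll1 with giredestrant was 2.04 in Krt14-low and 1.80 in secretory cells. Whether its difference is particular to Krt14-low cells was not tested.

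Secretory cells of Y541S mice held more Heyl and Notch3 and less Hey1 with giredestrant. Heyl stood at 16.1 CPM (191 UMIs) against 4.67 (122 UMIs), a relative log2 ratio of 1.78 (1.45 to 2.12), and Notch3 at 110.8 against 66.8, 0.72 (0.62 to 0.83). Hey1 stood at 9.38 CPM (111 UMIs) against 24.4 (637 UMIs), -1.38 (-1.69 to -1.09). The secretory cells of this library were mostly casein-rich: without them, Heyl was at 1.42, Hey1 at -1.88 and Notch3 at 0.73. Jag1 (8.11 against 4.13 CPM), Jag2 (1.77 against 0.61) and Dll1 (3.21 against 0.92) were at 0.97, 1.53 and 1.80, on 21 to 108 UMIs a library for all but Jag2 in vehicle (16 UMIs). Notch4 was past the fold lower on 5 UMIs against 20. In all, 5 of 10 members were higher (16.4% of all genes) and 2 lower (18.4%).

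Basal cells of Y541S mice held more Notch1 and Notch3 with giredestrant. Notch1 stood at 46.1 CPM against 19.5, 1.17 (1.04 to 1.31), and Notch3 at 8.28 against 3.47, 1.19 (0.86 to 1.51). Jag1, Jag2 and Dll1 were within 1.5-fold, at 0.14, 0.15 and 0.51. Marker lists of other cells were also higher in these basal cells than with vehicle. The secretory list was at 484.9 CPM against 165.3, the pericyte list at 47.6 against 9.7, the endothelial list at 28.9 against 7.6, the immune list at 158.5 against 53.1 and the fibroblast list at 415.1 against 264.3. Without cells that hold markers of non-epithelial cells, Notch1 was at 1.18 and Notch3 at 1.08, and the part of secretory RNA was not tested. That setting left out few cells, keeping 2944 of 2951 basal cells with vehicle and 3595 of 3641 with giredestrant. Non-epithelial RNA in the kept cells was not tested. Heyl was past the fold on 14 UMIs against 9, with an interval that includes no difference, and Notch4 on 8 against 22. These make 3 of 10 members higher (14.3% of all genes) and 1 lower (12.1%).

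**Figure D3:**
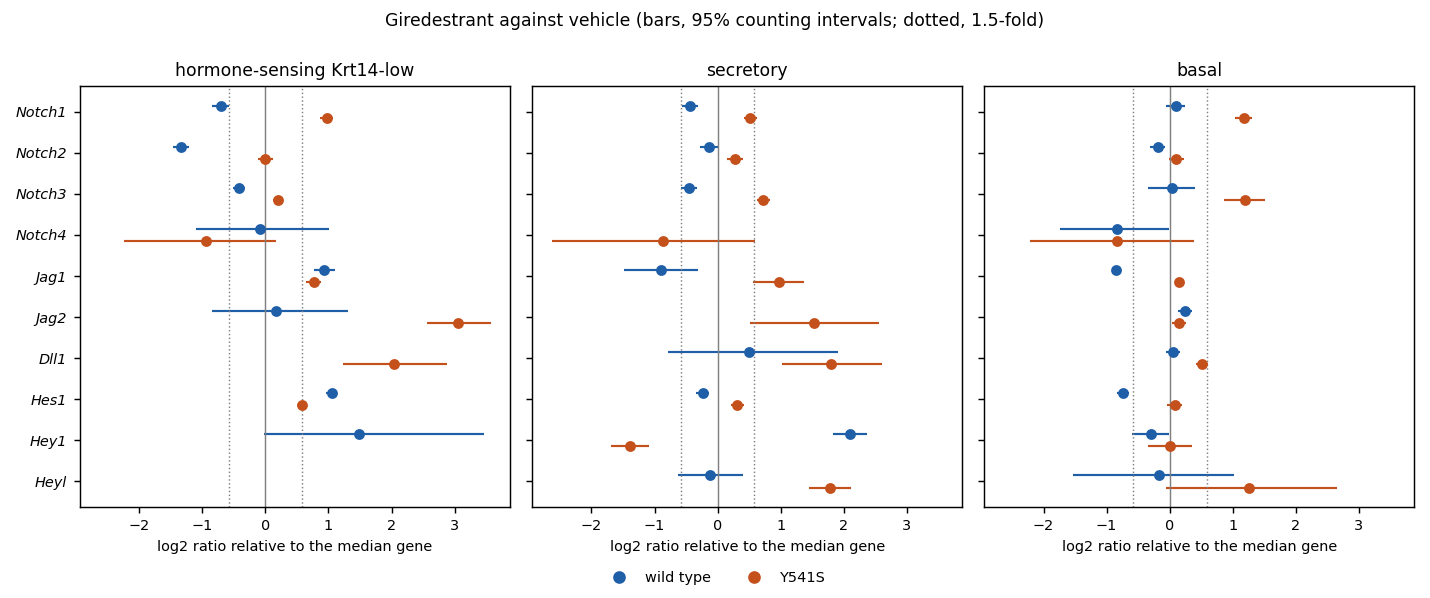
Ratio of each Notch gene with giredestrant to vehicle, on the log2 scale relative to the median gene, in 3 cell classes, for wild type and Y541S, with 95% counting intervals and dotted lines at 1.5-fold (members under 20 UMIs are left out). Notch1 in Krt14-low cells and Hey1 in secretory cells lie on opposite sides of zero in the 2 genotypes, at -0.71 and 0.97 and at 2.10 and -1.38.

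Among cells that met the hormone-sensing or the secretory rule, the Krt14-high cells had the most Jag2 and Dll1. In the Y541S giredestrant library, Jag2 stood at 50.9 CPM (455 UMIs in 980 cells), against 8.69 in its Krt14-low cells and 46.4 in its basal cells. Dll1 stood at 19.3 CPM against 2.11 in Krt14-low and 73.9 in basal cells, and Jag1 at 110.5 against 56.0 and 203.2. Acta2, the smooth-muscle actin of basal cells, was at 56.1 CPM in the Krt14-high cells and at 6612 in the basal cells of that library. Acta2 is a gene of the basal rule, and cells that met that rule were left out of the Krt14-high class. The class rules thus select for this difference, and nothing is read from it about whether the Krt14-high cells are basal. Notch3 stood at 53.3 CPM in Krt14-high cells, below the 119.9 of Krt14-low cells and above the 8.28 of basal cells, and Hes1 at 68.4, against 132.4 and 40.3.

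**Figure D4:**
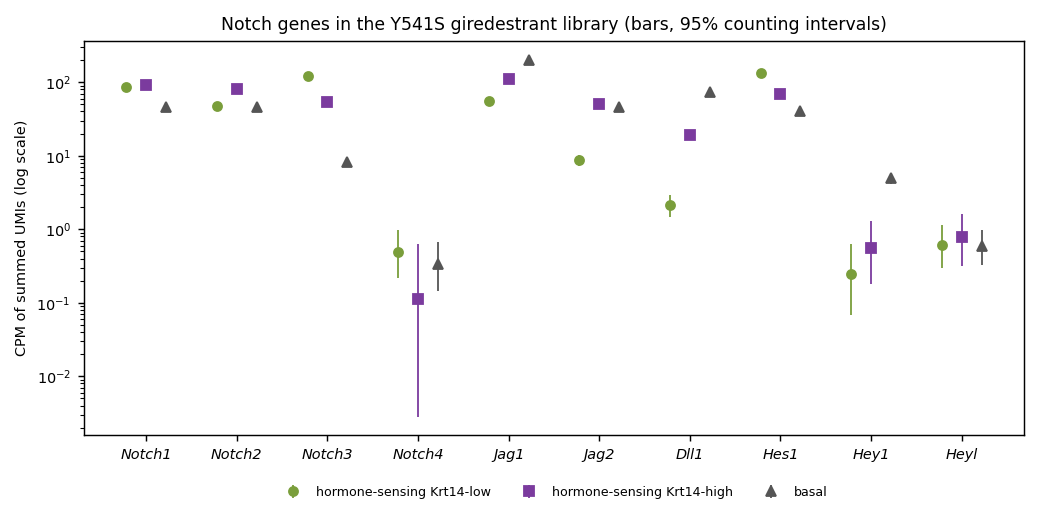
CPM (log axis) of each Notch gene in Krt14-low and Krt14-high hormone-sensing cells and basal cells of the Y541S giredestrant library, with exact 95% Poisson intervals. Krt14-high cells lie between the other classes for Notch3, Jag1, Dll1 and Hes1, and at 50.9 CPM of Jag2 they lie close to the 46.4 of basal cells.

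Within that library, Krt14-high against Krt14-low cells gave relative log2 ratios of 3.46 (2.92 to 4.03) for Dll1, 2.81 (2.54 to 3.10) for Jag2, 1.24 (1.11 to 1.37) for Jag1 and 1.02 (0.87 to 1.17) for Notch2. Notch3 was at -0.91 (-1.06 to -0.76) and Hes1 at -0.69 (-0.82 to -0.56). With the median gene at -0.26 between these cells, 4 of 7 members with enough UMIs were higher and 2 lower, where 20.9% and 20.2% of genes were. The cells of 1 library are not replicates, and 168 of the 980 cells lay within a factor of 2 above the split.

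Across libraries the test of the split could use only the Krt14-high sums of the 2 Y541S libraries, 22 cells with vehicle and 980 with giredestrant. Dll1 (log2 fold change 4.11 ± 0.56, edgeR adjusted p = 0.0085) and Jag2 (3.76 ± 0.59, edgeR adjusted p = 0.013) were called higher, and no member was called lower, where 3.27% and 1.21% of genes were. The split is on Krt14, a basal gene, and both ligands were also higher in basal than in Krt14-low cells. How far the split itself selects for them was not tested. Jag1 (edgeR adjusted p = 0.070) and Notch3 (0.054) did not pass. Without the Y541S vehicle library no member was called (adjusted p = 0.094 for Dll1 and 0.11 for Jag2), and without the Y541S giredestrant library Jag2 alone was (adjusted p = 0.11 for Dll1). Each of these fits leaves 1 Krt14-high sum, which is assumed to vary like the others. Jag1 passed without the wild-type giredestrant library (0.038). The 22 vehicle cells carried 630.0 CPM of Acta2, above the 56.1 of the giredestrant cells. With the highest Scrublet doublet scores removed, 4 of the 22 and 916 of the 980 cells were left, too few in vehicle for a sum. Against those 22 cells, Notch1, Notch2, Jag2 and Dll1 were past 1.5-fold higher in the 980 cells, 4 of 7 members (27.7% of genes higher and 26.6% lower). Each rested on 25 or fewer UMIs in vehicle, and the interval of Dll1 (-0.014 to 2.88) includes no difference.

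Between genotypes under vehicle, none of 8 members was past 1.5-fold in Krt14-low cells, where 11.7% of genes were higher and 11.4% lower in Y541S. Notch2 was at -0.52 (-0.63 to -0.40) and Jag1 at 0.38 (0.20 to 0.55). Notch4, Jag2 and Dll1 rested on 6 to 12 UMIs in wild type, and their intervals reach past 1.5-fold in both directions. Basal cells of Y541S mice held less Hes1, at 36.3 CPM against 85.2, a relative log2 ratio of -1.24 (-1.32 to -1.15). The secretory list in these cells was at 165.3 CPM against 365.9 and the fibroblast list at 264.3 against 144.1. Without cells that hold markers of non-epithelial cells the ratio was again -1.24, and the part of secretory RNA was not tested. That setting kept 2944 of 2951 basal cells in Y541S and 4820 of 4832 in wild type, so the ratio could hardly move. Non-epithelial RNA in the kept cells was not tested. Hey1 was also lower there, at 4.67 against 7.28, -0.65 (-0.91 to -0.39). With Notch4 and Heyl, which rested on 22 UMIs against 71 and 9 against 24, 4 of 10 members were lower and none higher (12.0% and 7.41% of genes). In secretory cells Hey1 was higher in Y541S, at 24.4 against 13.5 CPM, 0.88 (0.61 to 1.15). Jag2 was past the fold on 16 UMIs against 4, so 2 of 10 members were higher and none lower (6.65% and 11.5% of genes).

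Between genotypes under giredestrant, Y541S cells held more Notch1 in all 3 classes. The relative log2 ratios were 1.40 (1.29 to 1.51) in Krt14-low, 0.63 (0.51 to 0.75) in secretory and 0.99 (0.83 to 1.15) in basal cells. Dll1 in Krt14-low cells rested on 3 UMIs in wild type, a ratio of 4.63 with an interval from 2.96 to 6.98, and Jag2 stood at 3.26 (2.69 to 3.86). Hey1 in secretory cells was at -2.58 (-2.88 to -2.30), and Heyl at 1.72 (1.33 to 2.12). Counts were 4 higher and 2 lower of 10 in Krt14-low cells (23.7% and 23.2% of genes), 6 and 1 of 9 in secretory cells (16.8% and 18.2%), and 5 and 1 of 10 in basal cells (16.5% in each direction). This comparison shares its libraries with those above, so it is not separate evidence.

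Among the other pathway genes, Furin, the protease that matures the receptor, differed most with giredestrant in wild-type Krt14-low cells, at 50.3 CPM against 235.3, a relative log2 ratio of -2.67 (-2.75 to -2.59). Its vehicle level in Y541S was 89.5 CPM. Maml2 was higher with giredestrant in Krt14-low cells of both genotypes, at 1.32 (1.13 to 1.51) in wild type and 1.96 (1.83 to 2.09) in Y541S. It was also lower in Krt14-low than in basal cells (log2 fold change -3.97 ± 0.39, edgeR adjusted p = 1.252e-05). In the Y541S giredestrant library Maml2 stood at 77.3 CPM in Krt14-low and 208.4 in Krt14-high cells. The Krt14-low cells of that library carried more of the basal list, and the part of basal RNA in the Maml2 ratio was not tested. Nrarp, a target that limits Notch signalling, was higher in wild-type secretory cells, at 22.1 CPM against 9.52, 1.16 (0.831 to 1.501). In Krt14-low cells, 8 of the 45 list genes with enough UMIs were higher and 7 lower in wild type (all genes 22.2% and 22.1%), and 6 and 8 of 43 in Y541S (all genes 23.1% and 24.2%).

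The genes whose levels were most like those of each member were found by Pearson's r of log2(CPM + 1) over 14 sums of class and library, which share libraries and depth, among 9087 genes. For Notch1 they were Cdh1 (r = 0.94), Tollip (0.93) and Numb (0.93), for Notch3 Mpzl3 and Marveld3 (each 0.99), and for Jag2 Col7a1 (0.99), Fscn1 and Col17a1 (each 0.98). For Dll1 they were Camk4 (0.99), Smad1 (0.98) and Pltp (0.98), for Jag1 Prkar1b, Vav3 (each 0.98) and P4ha1 (0.97), and for Hey1 Apod (0.98), Chn2 (0.96) and Creb5 (0.95). Heyl went with Epsti1 (0.99), Btn1a1 and Gm42583 (each 0.98), Hes1 with Zfp182 (0.90), Cnot10 and Zfp950 (each 0.89), and Notch2 with Vcl (0.94), Hbegf and Gm15500 (each 0.90). The highest value for Notch4, 0.89 for Gm15614, rests on few UMIs.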

How the data were processed

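RNA of EpCAM+ mammary cells was measured in 4 libraries (10x Genomics 3′ kit, v3.1). In the deposited matrices each value is a raw UMI count of 1 gene in 1 barcode, made with Cell Ranger 6.0.1 per the file headers, on GRCm38 per the submitters' processing notes. The annotation release is not given in the sources used here. Other deposited text files list the barcodes, gene identifiers and symbols.

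Barcodes were kept with at least 1000 UMIs, 500 genes and at most 15% mitochondrial UMIs. Cells meeting exactly 1 class rule were used. Cells meeting more than 1 rule (103, 157, 291 and 267) or none (825, 224, 326 and 905; wild-type vehicle, wild-type giredestrant, Y541S vehicle, Y541S giredestrant) were left out. Scrublet in Scanpy 1.11.5 marked 2, 17, 214 and 251 cells at its automatic threshold, in the same order, which is too few to have worked in wild-type vehicle, so no cell was removed. An alternative removed 401, 73, 417 and 595.

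UMIs were summed per library and class of at least 20 cells. Total UMIs per library ranged from 70781982 to 132660456. Ratios of 2 libraries used genes with 20 or more UMIs over both, relative to the median gene, and a member is called past 1.5-fold. Intervals are exact at 95% and cover counting error only. Classes were compared with edgeR 4.0.16 (TMM, filterByExpr, quasi-likelihood, library as a block, adjusted p under 0.05). With the library as a block, these p-values rest on how far class differences vary between 4 libraries of different treatment and genotype. Shifts shared by all classes of a library are taken out. DESeq2 1.42.0 was an alternative. Scripts were tested on simulated data.

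The members and gene lists were chosen with earlier results of these data known. All 10 members are named. Of the wider list, up to 4 genes per comparison were eligible to be named, by the size of the ratio or fold change among genes with 50 or more UMIs, and up to 3 like genes per member, of which 1 is not reported here. Of the 6 promoter motifs, 3 were added after the first 3 had given no match.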

Additional observations from a re-analysis of the deposited data

Results flagged for a closer look

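For 3 members the 2 genotypes lay past 1.5-fold in opposite directions with giredestrant against vehicle, relative to the median gene. The difference between genotypes was not tested in any of them, since each group was 1 library. Notch1 in hormone-sensing Krt14-low cells was at -0.71 in wild type and 0.97 in Y541S, and with no shift to the median gene at -0.27, within 1.5-fold, and 1.31. Hey1 in secretory cells was at 2.1 in wild type and -1.38 in Y541S. Jag1 in secretory cells was at -0.89 in wild type and 0.97 in Y541S, but on 47 UMIs against 58 in wild type. The wild-type value was 1.95 with each cell thinned to 3000 UMIs, the same direction as in Y541S. That thinned value rests on fewer UMIs still, so the direction in wild type is not settled.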

How the results depend on the processing

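No paired analysis was possible because each group was 1 library and the labels give no replicate numbers; this holds for treatment and genotype, while cell classes were compared within libraries. Between libraries, counts are calls of a member in a class, summed over classes, so 1 member can count more than once. With each cell thinned to 3000 UMIs, calls past 1.5-fold lower came to 1 (main 4) for giredestrant in Y541S, 7 (main 4) for Y541S against wild type under vehicle and 2 (main 4) for the same under giredestrant. With a minimum of 50 UMIs, the first and last of these came to 1, and those higher in Y541S under vehicle to 1 (main 2). That last count was also 1 with the highest Scrublet scores removed or at most 5% mitochondrial UMIs, and 4 with the mean over cells. Relative log2 ratios changed sign on thinning for Jag1 in secretory cells with giredestrant in wild type (1.95), Notch4 in Krt14-low cells (1.60) and Heyl in basal cells (-0.10) with giredestrant in Y541S, and Heyl in basal cells between genotypes under vehicle (0.42) and giredestrant (-0.77). Jag2 in secretory cells of Y541S against wild-type vehicle changed sign with overlapping class rules (-0.82) and thresholds at 2 times the rule (-0.78). These ratios rest on few UMIs, and the cause was not tested.

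Between classes, members lower in Krt14-low than in secretory cells came to 2 (main 4) without the library block. Leaving out each library in turn gave 1 to 3 members higher in Krt14-low than in basal cells (main 3), 3 to 5 higher in secretory than in basal cells (main 5), and 0 to 3 higher in Krt14-high than in Krt14-low cells (main 2). In the last contrast, 1 member was lower with DESeq2 or on thinned cells (main 0).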
